A study of Arabidopsis thaliana with 4 samples.

Results

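DFR (AT5G42800) encodes dihydroflavonol 4-reductase and CHIL (AT5G05270) a chalcone isomerase-like protein. Each is assigned 1 probe set by the annotation of the Affymetrix ATH1 array, so 2 of the 22810 probe sets were examined. The pair was chosen by its signals in polysomal RNA, where the genes moved in opposite directions under dehydration. That difference is therefore given as a description.

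The signals come from 4 arrays of Arabidopsis thaliana RNA, 1 for each group. The groups were non-polysomal RNA (messages carrying no ribosome or a single one) of unstressed plants, polysomal RNA (messages carrying several) of unstressed plants, and the same RNA fractions of plants under dehydration stress. The labels name no tissue, genotype, age or length of dehydration. Since no group has a replicate array, no difference was tested, and the number of arrays limits the precision.

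Flavonoids are built from phenylpropanoid precursors. Chalcone synthase makes the first flavonoid intermediate, chalcone isomerase closes its ring, and later enzymes lead either to flavonols or, through DFR, to anthocyanins and proanthocyanidins. CHIL has the fold of chalcone isomerase but is known as a non-catalytic helper of the early steps, needed for full flavonol levels, while DFR catalyses the first step committed to the coloured products. Sugars and acyl groups are then attached by glycosyltransferases and acyltransferases. Anthocyanins accumulate in many plants under drought and other stresses.

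The deposited signals had been scaled to a 2% trimmed mean of 500 on every array, and their medians ranged from 186 to 249.6. Signals under a lower limit of 69.9 were raised to it, which touched 18.8% to 29.2% of the probe sets of an array. The limit is close to the highest signal, 70.8, of 27 probe sets for bacterial sequences taken as not spiked in. It lies well above their median signal of 11.4. A probe set was taken as measured where its mean log2 signal reached the median of all probe sets that are not controls, which left 11373. DFR and CHIL were both measured and lay above the limit on all 4 arrays. Per the experiment records, the unstressed arrays shared a hybridization batch (by date) and a fluidics station and the dehydration arrays another of each, so in any comparison between conditions dehydration, batch and station cannot be told apart.

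The DFR signal was 254.8 in non-polysomal and 206.9 in polysomal RNA of unstressed plants. Under dehydration it was 629.5 in non-polysomal and 763.6 in polysomal RNA. Both dehydration arrays thus lay above both unstressed arrays, and the fractions of a condition lay close together.

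The CHIL signal was 1148.6 in non-polysomal and 2737.5 in polysomal RNA of unstressed plants. Under dehydration it was 804.1 in non-polysomal and 958.4 in polysomal RNA. Both dehydration arrays lay below both unstressed arrays, and the polysomal RNA of unstressed plants stood well above the other 3 arrays.

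**Figure D1:**
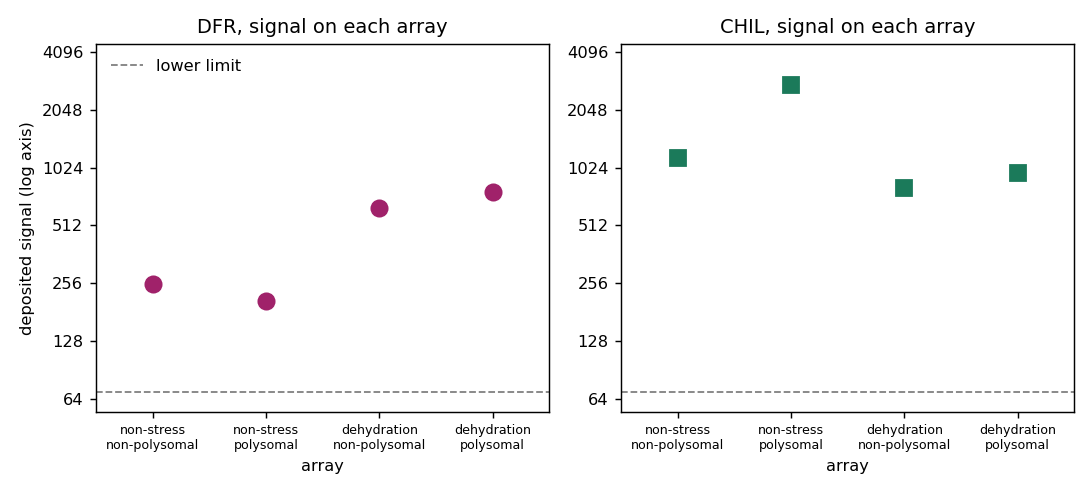
Deposited signal (log axis) of DFR (left, circles) and CHIL (right, squares) on each of the 4 arrays, 1 point per array, with the lower limit of 69.9 as a dashed line. DFR is high on the dehydration arrays (629.5 and 763.6), whereas CHIL is highest in polysomal RNA of unstressed plants (2737.5).

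In polysomal RNA, the comparison used to choose the pair, DFR was 3.69-fold higher under dehydration (log2 difference 1.88) and CHIL 2.86-fold lower (-1.51). Of all measured probe sets, 182 had a higher difference than DFR and 207 a lower one than CHIL. A 2-fold or greater difference was found upward in 6.36% of the measured probe sets and downward in 5.58%. The distance between the genes' differences was 3.40 on the log2 scale. This distance is the same under any scaling that multiplies a whole array, and it was 3.19 under quantile normalization. As RNA was extracted from whole samples, fewer cells containing a transcript and less of it per cell cannot be told apart.

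Non-polysomal RNA was hybridized to other arrays, and the rule that chose the pair did not name it. It is still no independent check. Earlier results of these data were known at the choice, and the arrays of a condition share batch and station. There DFR was 2.47-fold higher under dehydration, a log2 difference of 1.30, and 263 measured probe sets had a higher one. CHIL was 1.43-fold lower (-0.51), with 1865 measured probe sets below it. The background shares past 2-fold in this fraction were 4.32% upward and 4.56% downward, or 9.62% and 2.15% under scaling on the hybridization controls. No replicate spread is available. As a yardstick, differences from the brightest and next probe set of the same gene, over 46 genes with more than 1 measured probe set, varied with an SD of 0.48 in this comparison. Both probe sets of a gene lie on the same arrays, so this SD leaves out variation between arrays, RNA samples and plants. It cannot stand for a replicate spread here or below. The DFR difference was larger than that SD, and the CHIL difference was close to it. Across the scalings the CHIL difference ran from -0.57 to -0.21 and that of DFR from 1.30 to 1.61, so neither changed direction.

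The ratio of polysomal to non-polysomal signal shows how a transcript is divided between the fractions relative to the average transcript of these arrays, and not the share of it on polysomes. Each ratio includes a polysomal signal by which the pair was chosen. A high ratio of CHIL without stress is therefore not independent of that choice, and the ratios are given as a description. In unstressed plants CHIL was 2.38-fold higher in polysomal RNA (log2 ratio 1.25), with 514 measured probe sets above it, and its ratio stayed above 0 under every scaling (1.12 to 1.73). DFR had a log2 ratio of -0.30, within the same-gene SD of 0.60, and this turned positive under median scaling (0.07), hybridization control scaling (0.18) and quantile normalization (0.06). The shares of measured probe sets past 2-fold were 8.56% upward and 11.9% downward, or 21.9% and 4.88% under hybridization control scaling. The log2 ratio of DFR minus that of CHIL was -1.55, or -1.06 under quantile normalization.

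Under dehydration the ratios of the genes were nearly equal. DFR had a log2 ratio of 0.28 and CHIL one of 0.25, both within the same-gene SD of 0.51. Across scalings the ratio of DFR lay between 0.28 and 0.54 and that of CHIL between 0.25 and 0.51. Past 2-fold in this comparison were 9.06% of the measured probe sets upward and 11.6% downward, or 15.6% and 6.87% under median scaling.

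From unstressed to dehydrated plants the log2 ratio of CHIL changed by -0.9997 and that of DFR by 0.58. These changes contain the polysomal difference used to choose the pair, so their directions are not independent of the choice. The change of CHIL lay just short of 2-fold, and 184 measured probe sets had a lower one. It ran from -1.37 under hybridization control scaling to -0.86 under quantile normalization, against a same-gene SD of 0.60. The change for DFR was within that SD, ran from 0.21 to 0.58, and was exceeded by 1284 measured probe sets. Ratio changes of at least 2-fold were found for 2.80% of the measured probe sets on the high side and 1.62% on the low side, or 0.906% and 7.64% under hybridization control scaling.

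**Figure D2:**
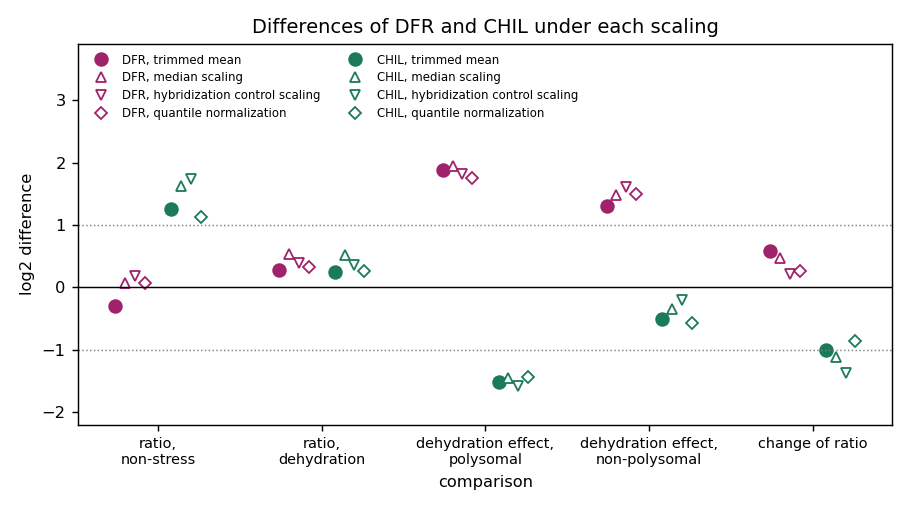
Log2 difference of DFR (magenta) and CHIL (green) in the 5 comparisons, where ratio means polysomal over non-polysomal RNA and the dehydration effect is dehydration over non-stress. Filled circles are trimmed mean scaling and open symbols the 3 other scalings, and dotted lines mark 2-fold. Only the ratio of DFR in unstressed plants changes sign (-0.30 against 0.06 to 0.18), while the ratios under dehydration of both genes lie together between 0.25 and 0.54.

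The difference in polysomal RNA is by construction the sum of the difference in non-polysomal RNA and the change of ratio. For DFR 69.3% of it was present in the non-polysomal fraction, and for CHIL 34.0%. Across the scalings this share was 69.3% to 88.7% for DFR and 13.2% to 40.0% for CHIL. The polysomal difference in these shares is the one the genes were chosen by, and it also enters the change of ratio, so the shares only describe how it divides.

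Of 61 other flavonoid genes listed by locus, 9 had a probe set assigned to a single gene symbol, and 5 of these were measured. A further 2 listed genes share a probe set with several symbols and were not examined. None of the 9 listed genes of general phenylpropanoid metabolism and none of the 9 of early flavonoid synthesis were among those found. The genes found were 1 of 6 for late steps and transport, 7 of 13 for decoration with sugars and acyl groups, and 1 of 24 regulators.

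Among the decoration genes, UF3GT, a glycosyltransferase of anthocyanins, had signals of 130.5 and 182.3 in non-polysomal and polysomal RNA of unstressed plants, and of 200.5 and 430.7 under dehydration. Its mean log2 signal fell just short of the 7.74 required of a measured probe set, though it lay above the lower limit on every array. The log2 difference under dehydration was 1.24 in polysomal and 0.62 in non-polysomal RNA, so that it lay on the same side as DFR in both fractions. AT4G14090, listed among the decoration genes and without a name in the gene table, had signals of 64.9 and 180.2 without stress and of 247.7 and 1012.5 under dehydration. In polysomal RNA it was 5.62-fold higher under dehydration (log2 difference 2.49), and in non-polysomal RNA at least 3.54-fold higher, the unstressed signal there being under the limit. AT5MAT, an acyltransferase that adds a malonyl group to anthocyanins, was not measured and ranged over the arrays only from 79.8 to 115.6, with a difference of 0.49 in polysomal RNA.

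A pair of glycosyltransferase genes acting on flavonols, UGT78D1 and UGT78D2, lay on the other side. UGT78D1, which attaches rhamnose to flavonols, had signals of 535.3 and 1176.4 in non-polysomal and polysomal RNA without stress and of 211.1 and 221.9 under dehydration. Its log2 difference under dehydration was -2.41 in polysomal and -1.34 in non-polysomal RNA. Its log2 ratio of polysomal to non-polysomal signal, like that of CHIL, was high without stress (1.14) and near 0 under dehydration (0.07), a change of -1.06, or -0.93 under quantile normalization.

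UGT78D2, which attaches glucose to flavonols and to anthocyanidins, went from 754.2 and 1926.6 without stress to 579.0 and 1120.4 under dehydration. Its log2 differences of -0.78 in polysomal and -0.38 in non-polysomal RNA were both less than 2-fold. AT1G06000, a further unnamed locus of the decoration list, went from 555.6 and 2317.6 to 305.6 and 1012.9, with differences of -1.19 and -0.86. Its ratio was high in both conditions, 2.06 and 1.73. UGT78D1, UGT78D2 and AT1G06000 were thus lower under dehydration in both fractions, as CHIL was. The non-polysomal difference of UGT78D2, however, was within the same-gene SD of 0.48. It shrank to -0.076 under hybridization control scaling. UGT78D1 and UGT78D2 are also members of the large UGT family.

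AT1G23390, entered in the list as a regulator, had signals of 1294.0 and 2204.0 without stress and of 498.8 and 1284.3 under dehydration. Its log2 difference under dehydration was -1.38 in non-polysomal RNA and -0.78 in polysomal RNA. Its ratio was 0.60 higher under dehydration, a change in the direction of DFR and not of CHIL. This change was about equal to the same-gene SD of 0.60 and was exceeded by 1222 measured probe sets. Across the scalings it ran from 0.22 to 0.70.

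BAN, the anthocyanidin reductase of proanthocyanidin synthesis, had signals of 6.0 to 16.2, and UGT78D3 of 5.4 to 42.7. Both were under the lower limit on all 4 arrays, and no fold was formed. BAN is also related to DFR in sequence, as is CCR2, a cinnamoyl-CoA reductase. CCR2 had signals of 14.9 and 24.6 without stress, both under the limit, and of 81.1 and 393.2 under dehydration, so that it was at least 5.62-fold higher in polysomal RNA. It did not reach the mean of a measured probe set. Of 6 listed relatives of DFR only these 2 were found, and none of 4 listed relatives of CHIL.

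Over the 5 measured genes of the list, 1 was past 2-fold upward (AT4G14090) and 2 downward (UGT78D1 and AT1G06000) in polysomal RNA under dehydration, beside 6.36% and 5.58% of all measured probe sets. The list median was -0.78 against -0.0040 for all measured probe sets. In non-polysomal RNA 1 was at least 2-fold higher (AT4G14090) and 2 lower (UGT78D1 and AT1G23390), beside 4.32% and 4.56%, with a median of -0.86 against -0.018. In unstressed plants 4 of the 5 were at least 2-fold higher in polysomal RNA and none lower, beside 8.56% and 11.9%. The median ratio was 1.35 against -0.065. Under hybridization control scaling 5 were higher and 0 lower, beside 21.9% and 4.88%. With the lower limit at percentile 35 the count was 3, and the ratio of AT4G14090 was 0.70. Under dehydration, at the main settings, 3 were higher and none lower, beside 9.06% and 11.6%, with 1.36 against -0.040. None had a ratio change of at least 2-fold upward and 1 (UGT78D1) had one downward, beside 2.80% and 1.62%, with a median of -0.33 against 0.013. These 5 are the genes bright enough to pass, and AT4G14090 passed through its dehydration signals, so the counts only describe them. UF3GT, 2.36-fold higher under dehydration in polysomal RNA, fell just short of the filter and is not counted.

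**Figure D3:**
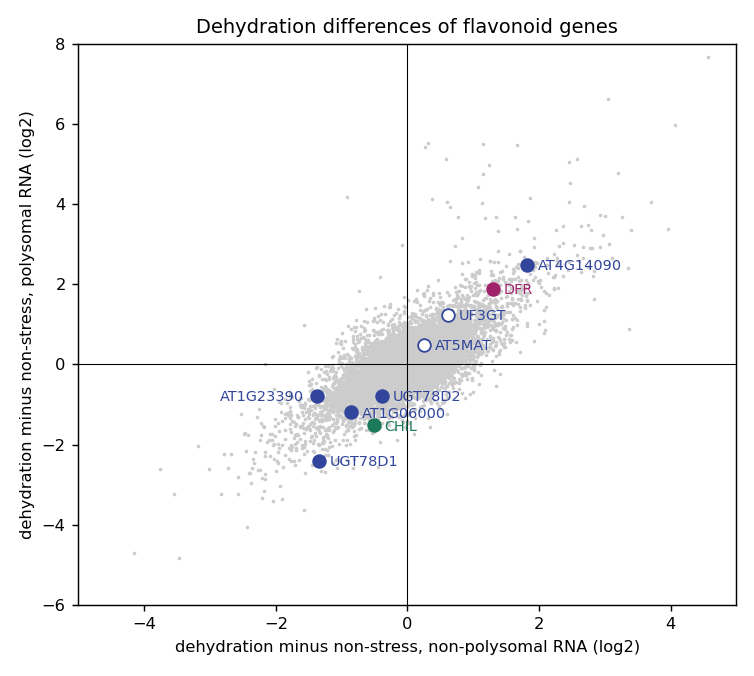
Log2 difference between dehydration and non-stress in non-polysomal (horizontal) and polysomal RNA (vertical) for all 11373 measured probe sets (grey), DFR (magenta), CHIL (green) and the listed flavonoid genes above the lower limit on at least 1 array (blue, open where not measured). DFR lies at 1.30 and 1.88, above 0 on both axes like AT4G14090, UF3GT and AT5MAT. The horizontal value of AT4G14090 is a lower bound. CHIL lies at -0.51 and -1.51, below 0 on both axes like UGT78D1, UGT78D2, AT1G06000 and AT1G23390.

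The genes of most similar pattern were sought among 5930 other loci whose probe set was measured and above the lower limit on all arrays. Likeness was the root mean square difference of log2 signal over the 4 arrays after each gene was centred on its own mean. UF3GT, not measured, and AT4G14090, under the limit in non-polysomal RNA of unstressed plants, were therefore not ranked. The closest to DFR were AT4G23880 (0.078), AT3G28270 (0.087), AT1G70420 (0.10), SKP2A (0.12) and AT5G52750 (0.12). SKP2A is an F-box protein of the cell cycle, and the others have no name in the gene table. AT4G23880 had signals of 310.1 and 216.2 without stress and of 699.8 and 857.3 under dehydration. All 5 had dehydration differences of 1.78 to 2.11 in polysomal RNA, which follows from picking them by likeness to DFR on these arrays.

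The closest to CHIL were AT1G14345 (0.033), AT3G16780 (0.067), AT3G05900 (0.076), AT2G18940 (0.083) and AT1G49470 (0.11), none of them named in the gene table. AT1G14345 had signals of 1275.9 and 3051.9 without stress and of 906.1 and 1128.2 under dehydration. In each of these genes, as in CHIL, polysomal RNA of unstressed plants gave the highest of the 4 signals. That too follows from how they were picked and is no separate result. Of the listed genes UGT78D2 was the nearest to CHIL, at rank 137 (0.33), followed by AT1G23390 at rank 390 (0.43), UGT78D1 at rank 418 (0.44) and AT1G06000 at rank 1294 (0.59), while DFR was at rank 5682 (1.42). Over 4 arrays many genes share a pattern, and this ranking has no test.

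**Figure D4:**
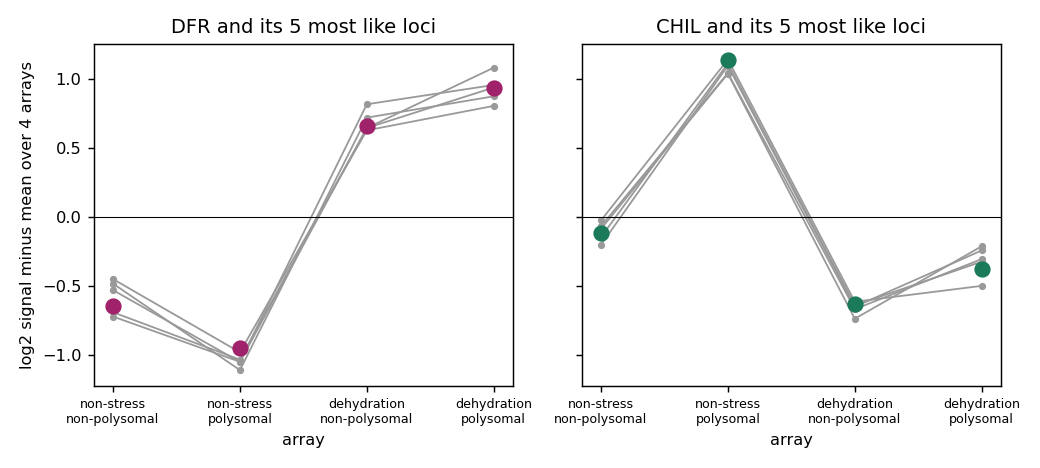
Log2 signal of DFR (left) and CHIL (right) minus its mean over the 4 arrays (coloured points), with the 5 loci of most similar pattern (grey points joined by lines). DFR and its 5 loci are low on both unstressed arrays and high on both dehydration arrays, and CHIL and its 5 loci are highest in polysomal RNA of unstressed plants. The loci were picked for this likeness.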

How the data were processed

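RNA of 4 groups was hybridized to 1 ATH1 array each, as the chip type shows per the file headers. The authors deposited 1 linear signal intensity per probe set, already scaled to a common trimmed mean. How probes were summarised was not given in the sources used here, and detection calls were not used.

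Arrays were brought to an equal 2% trimmed mean (the same as the deposited scale apart from rounding), signals under the median of the arrays' percentile 25 were raised to it, and log2 taken. After removal of 64 control probe sets, a probe set counted as measured where its mean log2 signal was at least 7.74, the median of these means. Differences were formed for 5 comparisons, which share arrays. Beyond the scalings, the lower limit, filter and fold threshold were varied. Calculations were tested on simulated arrays, using Python 3.11.15, numpy 2.4.6 and pandas 2.3.3.

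Of 22746 probe sets, 13513 had 1 symbol in the platform annotation, 503 several and 8730 none here, and 13436 were matched to the TAIR10.1 gene table for current names. Named are both members, all listed genes found and the 5 most similar loci of each member. The members and lists were chosen with earlier results of these data known, and the lists were written from general knowledge. Promoter and protein sequences were not used here, so a planned motif search was not run.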

Additional observations from a re-analysis of the deposited data

Results flagged for a closer look

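The polysomal to non-polysomal ratio of DFR lay on opposite sides of 0 in the conditions, with a log2 ratio of -0.30 without stress and of 0.28 under dehydration. The difference between these ratios was not tested. Each lies within the SD between probe sets of the same gene, and the ratio without stress was positive under the other 3 scalings.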

How the results depend on the processing

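For DFR and CHIL no log2 difference moved by more than the same-gene SD under median, hybridization control or quantile scaling or with the lower limit at percentile 10 or 35, and the sign changed only for the DFR ratio without stress. Counts of the list changed by over 1.5 times, or to or from 0, in 11 cases, and smaller changes of 1 gene are not given here. Without a filter 2 genes were at least 2-fold higher in polysomal RNA under dehydration. With the filter at percentile 75, which left 3 measured genes, 0 were higher and 1 lower in either fraction, 2 were higher in polysomal RNA without stress and 0 had a lower ratio. A 1.5-fold threshold gave 4 lower in polysomal RNA and 2 with a higher ratio. Quantile normalization gave 0 with a lower ratio and the limit at percentile 35 gave 1 with a higher ratio, AT4G14090. Its change there is an upper bound (at most 1.33), as an unstressed signal was raised to the limit. At the main limit the bound was 0.67. Of the 5 loci most like each member, 3 were shared under quantile normalization. Among all measured probe sets, those with a polysomal ratio at least 2-fold higher without stress numbered 973, or 2489 under hybridization control scaling, and those with a lower ratio change 184, or 869. The 1.5-fold threshold gave 1782 higher and 1776 lower in polysomal RNA, against 723 and 635. No paired analysis was possible because each group has 1 array, and no array could be left out for the same reason.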
